A study of Homo sapiens with 8 samples.

Results

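The 7 genes described here encode cytokines acting on lymphocytes, or chains of their receptors, and were measured in breast carcinoma cells grown with or without astrocytes. They were taken from the deposited count table by gene symbol, namely IL15, IL15RA, IL7, IL7R, IL32, IL12A and IL23A, and made up 7 of its 57445 genes. All 7 reached the mean of 10 counts per library that was required for testing. IL23A did so narrowly, with a mean of 10.6 counts, and the other 6 had means of 192 to 1871 counts.

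The carcinoma cells, MDA231-BrM2, are a brain-metastatic subline of the human breast cancer line MDA-MB-231. Their GFP-tagged ribosomes were recovered with antibody-coated beads (translating ribosome affinity purification, TRAP), in the cocultures from a lysate that also holds astrocytes, so the values are of polysome-associated RNA. The 8 libraries formed 4 groups of 2. Cells with a control hairpin (consh) were kept by themselves in 1 group and placed with astrocytes in another. In the other 2 groups the cells carried hairpin Cx43sh1 or Cx43sh2 and were likewise placed with astrocytes. Both target GJA1, the gene of the gap junction protein connexin 43. Each coculture had 1 carcinoma cell per astrocyte for 24 h. The species of the astrocytes is not given in the sources used here, and Cx43-depleted cells without astrocytes were not analysed here. The series design calls the replicates independent but does not say what was repeated, so p-values measure the spread between these libraries. All groups came from 1 derivative of 1 line.

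IL-15 is usually made and shown together with its own receptor chain. The alpha chain, encoded by IL15RA, carries IL-15 to the surface of the producing cell and presents it to neighbouring T and NK cells, which answer through a beta chain (IL2RB) and the common gamma chain (IL2RG). IL-7 supports lymphocyte survival through IL7R paired with the same gamma chain, and IL7R also pairs with CRLF2 to bind TSLP. IL12A and IL23A encode p35 and p19, subunits that are secreted as IL-12 and IL-23 only when joined to p40, the product of IL12B. IL-32 is a pro-inflammatory cytokine of lymphocytes and epithelial cells. Transcription of IL15 and IL15RA is known to be driven by interferon through factors such as IRF1, and IL-12 family subunits and IL32 are known NF-kB targets.

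Because those factors are known regulators of the genes, the 250 bases before each RefSeq transcription start (GRCh38.p14) were searched on both strands for an interferon response element core (GAAA, 2 bases of any kind and GAAA), a gamma-activated site (TTCNNNGAA) and the NF-kB consensus. Of all 35116 such windows in the RefSeq table, 3.02% held the first, 6.57% the second and 9.96% the third. The share of windows that held any of them was not computed. The search covered 9 windows of 5 members, those of IL15RA, IL7R, IL32, IL12A and IL23A, and 5 of the 9 held a match. IL15 had no entry among the promoter sequences used, and IL7 was left out of the search, so nothing is said of either. Some of the IL15RA windows overlap each other. The 5 matches are printed below 5′ to 3′ on the gene's strand, with the matched bases in capitals. None overlapped a match to another motif, and none of the 9 windows searched held the interferon response element core.
IL15RA gamma-activated site: gcagcaggaaTTCGGCGAAgtggcggagc
IL15RA NF-kB: gcggaggaccGGGAGGCTCCCgggcttgcg
IL32 NF-kB: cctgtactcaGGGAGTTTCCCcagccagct
IL12A NF-kB: ggtggtgggcGGGGTGTCCCgcccgcctgt
IL23A NF-kB: gatgcagggaGGGGAATCCCacctgctgtg

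The IL15RA gamma-activated site lay at chr10:5978155-5978183 on the minus strand, with its capitals from -127 to -119 relative to the start. The IL15RA NF-kB match lay before another start of the gene, at chr10:5977780-5977809 on the minus strand, from -188 to -178. The other matches were on the plus strand, at chr16:3065294-3065323 for IL32 (-99 to -89), chr3:159988781-159988810 for IL12A (-44 to -35) and chr12:56338779-56338808 for IL23A (-95 to -86). In GENCODE v29 all of these matches but that of IL23A overlap an annotated exon of the same gene. A match describes the letters only, and binding was not measured in these libraries.

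Gene counts per library ranged from 38219702 to 48997555. Levels are given as CPM, the count per 10 to the power 6 counts of a TMM-scaled library, and 3 reads corresponded to 0.0624 to 0.0805 CPM. Library 1 of the control coculture had the largest share of alignments that were not unique, 26.1% against 14.2% to 21.5% elsewhere, and results without it are given where leaving it out changed a call. GJA1 fell to 0.426 of the control coculture with hairpin 1 and to 0.502 with hairpin 2. Relative to cells alone, GJA1 rose 1.34-fold when astrocytes were present. The part of astrocyte RNA in the GJA1 reads was not tested. These ratios therefore do not give the level left in the carcinoma cells themselves. The carcinoma line markers VIM, CD44, EGFR and 7 others were all detected above the test filter, with summed levels of 3680 to 4727 CPM per library. Some of these moved with the comparisons: 4 of the 10 rose and 1 fell in coculture, and 4 fell on depletion, that is with the mean of both hairpins against the control coculture. VIM, for example, had log2 changes of 0.60 in coculture and -0.58 on depletion. Among all tested genes 8.74% rose and 2.93% fell in coculture, and 5.85% fell on depletion.

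IL15 and its alpha chain IL15RA rose together when control cells were grown with astrocytes, by 1.98-fold and 1.64-fold, and both were lower with each Cx43 hairpin. IL7 and IL32 also rose in coculture, by 1.44-fold and 1.54-fold. IL12A was lower with hairpin 1 and with the mean of both hairpins, without a called rise in coculture. IL7R and IL23A passed the threshold in none of the 6 comparisons. The plot of levels by library shows all 7 genes.

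**Figure D1:**
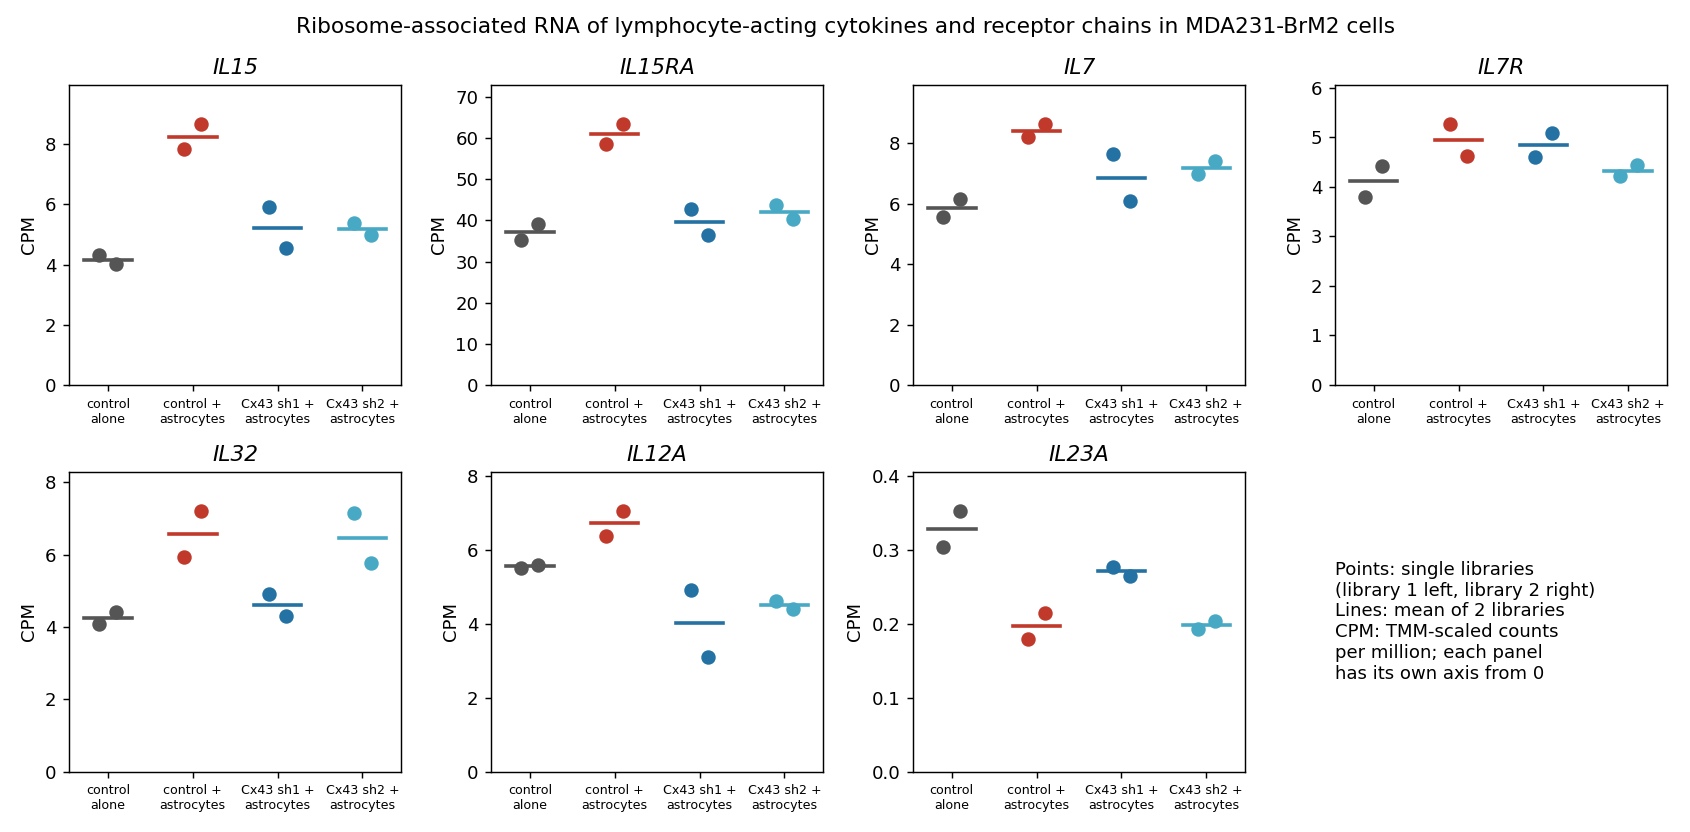
CPM of each gene in the 8 libraries, with single libraries as points, the mean of 2 libraries as a line and a separate axis from 0 in each panel. IL15 and IL15RA sit highest in both control cocultures, IL32 is high in the control and hairpin 2 cocultures, and IL23A never exceeds 0.353 CPM.

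IL15 was at 4.31 and 4.01 CPM in the cells-alone libraries and at 7.84 and 8.66 CPM in those of the control coculture. It had 5.90 and 4.56 CPM with hairpin 1 and 5.37 and 4.98 CPM with hairpin 2. Both control cocultures therefore lay above the 6 other libraries, and every coculture with a Cx43 hairpin lay above both libraries of cells alone. The group means were 4.16 ± 0.213, 8.25 ± 0.584, 5.23 ± 0.944 and 5.18 ± 0.280 CPM in the same order (SD, n = 2).

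In the edgeR quasi-likelihood fit of all 8 libraries, IL15 was higher in coculture by 0.99 on the log2 scale (SE 0.136, 95% interval 0.68 to 1.30, adjusted p = 0.00215). It kept its call in each of the 8 fits that left out 1 library, with log2 changes of 0.90 to 1.06. In bulk libraries, a change in the RNA of each cell and a change in the share of cells that contribute it cannot be told apart.

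Against the control coculture, the log2 change of IL15 was -0.66 with hairpin 1 (SE 0.133, adjusted p = 0.0245) and -0.67 with hairpin 2 (SE 0.133, adjusted p = 0.0277). Both comparisons share the control cocultures. The hairpin 1 call held in 3 of the 8 fits without 1 library, those without library 1 or 2 of cells alone or library 1 of hairpin 1. The hairpin 2 call held only when a hairpin 1 library was the one left out. When only the hairpin 1 and control coculture libraries were fitted, adjusted p was 0.118. With a block for replicate number, IL15 passed with neither hairpin (adjusted p of up to 0.0621). All fits without 1 library kept IL15 lower, by log2 changes of -0.85 to -0.48 with hairpin 1 and -0.74 to -0.59 with hairpin 2. On depletion the log2 change was -0.66 (SE 0.113, 95% interval -0.92 to -0.41, adjusted p = 0.00945). Adjusted p became 0.111 when library 2 of the control coculture was left out and 0.0539 when library 2 of hairpin 2 was.

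IL15RA, the chain that presents IL-15, was the most abundant of the 7. It was at 35.2 and 39.0 CPM in the cells-alone libraries and at 58.6 and 63.4 CPM in those of the control coculture. The values were 42.7 and 36.4 CPM with hairpin 1 and 43.9 and 40.3 CPM with hairpin 2. The control cocultures stood above all other libraries, and those of hairpin 1 overlapped cells alone. Group means were 37.1 ± 2.72, 61.0 ± 3.43, 39.5 ± 4.50 and 42.1 ± 2.56 CPM (SD, n = 2).

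The rise of IL15RA in coculture was 0.72 on the log2 scale (SE 0.0977, 95% interval 0.49 to 0.94, adjusted p = 0.00207) and kept its call without each library in turn. It was lower with hairpin 1 (log2 change -0.63, SE 0.0976, adjusted p = 0.00841) and with hairpin 2 (-0.54, SE 0.0973, adjusted p = 0.0188). The depletion change was -0.58 (SE 0.0827, 95% interval -0.77 to -0.39, adjusted p = 0.00411), and adjusted p became 0.0649 when control coculture library 2 was left out. That omission also ended the hairpin 1 call of IL15RA (adjusted p = 0.0737), as did fitting only the compared groups (adjusted p = 0.0573). Its hairpin 2 call ended without either control coculture library or either hairpin 2 library, with an adjusted p of up to 0.227.

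The pair kept a similar proportion in the cocultures. Cells alone had 8.16 and 9.73 IL15RA reads per IL15 read, and the control cocultures had 7.48 and 7.32. The ratio was 7.25 and 7.97 with hairpin 1 and 8.17 and 8.09 with hairpin 2. The ratios of the control cocultures lay below those of cells alone and inside the range of the hairpin 1 cocultures.

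IL7 was at 5.56 and 6.15 CPM in the cells-alone libraries and at 8.20 and 8.64 CPM in those of the control coculture. It had 7.65 and 6.08 CPM with hairpin 1 and 6.99 and 7.41 CPM with hairpin 2. The control cocultures were again the 2 highest libraries, and hairpin 1 library 2 fell within the range of cells alone. Its rise in coculture was 0.52 on the log2 scale (SE 0.124, 95% interval 0.24 to 0.80, adjusted p = 0.029).

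That call for IL7 held in only 2 of the 8 fits without 1 library, those without either library of hairpin 1, and adjusted p reached 0.155 without library 1 of cells alone. The lower level in the depleted cocultures did not pass, with a log2 change of -0.29 for hairpin 1 (adjusted p = 0.18) and -0.22 for hairpin 2 (adjusted p = 0.362). Without library 1 of hairpin 1 the depletion change of IL7 passed, at -0.35 (adjusted p = 0.0437). Part of the IL7 locus is shared with the opposite-strand gene ZC2HC1A and a pseudogene of THAP12 on the same strand. ZC2HC1A had 301 to 426 counts per library and the pseudogene 29 to 51. The library kit does not mark strand, and the counting mode is not given in the sources used here. How reads of the shared part were assigned or set aside is therefore not known.

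IL7R, the receptor chain for IL-7 and TSLP, had 3.80 and 4.43 CPM in control cells alone, 5.27 and 4.61 in the control cocultures, 4.60 and 5.09 with hairpin 1, and 4.22 and 4.43 with hairpin 2. All groups thus lay between 3.80 and 5.27 CPM, and the hairpin 2 libraries overlapped those of cells alone. The coculture change was 0.26 on the log2 scale (95% interval -0.03 to 0.55, adjusted p = 0.224), and the depletion change was -0.11 (95% interval -0.36 to 0.14, adjusted p = 0.578). These intervals leave room for a modest change in either comparison.

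IL32 was at 4.08 and 4.43 CPM in the cells-alone libraries and at 5.94 and 7.22 CPM in those of the control coculture. With hairpin 1 it had 4.92 and 4.32 CPM, and with hairpin 2 it had 7.16 and 5.77 CPM. The hairpin 1 libraries overlapped cells alone, whereas the hairpin 2 libraries overlapped the control cocultures and lay above both hairpin 1 libraries. The hairpins also did not overlap for IL7R and IL23A, neither of which passed the direct edgeR test (adjusted p = 0.747 and 0.786). The share of all genes without overlap between the hairpins was not computed, so no difference is read from this.

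The rise of IL32 in coculture was 0.63 on the log2 scale (SE 0.149, 95% interval 0.29 to 0.96, adjusted p = 0.0288). It lost its call when any of 3 libraries was left out, library 1 of cells alone (adjusted p = 0.155), library 2 of the same group (0.108) or control coculture library 2 (0.15). Against the control coculture the log2 change was -0.51 with hairpin 1 (95% interval -0.84 to -0.17, adjusted p = 0.0723) and -0.02 with hairpin 2 (95% interval -0.35 to 0.30, adjusted p = 0.947). The direct difference, hairpin 2 minus hairpin 1, was 0.48 (SE 0.147, 95% interval 0.15 to 0.82), with an adjusted p of 0.705 over all genes. IL32 thus did not pass the test of a difference between hairpins, although its unadjusted interval lay above 0. With no filter on low counts that adjusted p was 0.0357.

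IL12A, which encodes p35, was at 5.51 and 5.59 CPM in the cells-alone libraries and at 6.37 and 7.05 CPM in those of the control coculture. It had 4.92 and 3.11 CPM with hairpin 1 and 4.63 and 4.41 CPM with hairpin 2. All 4 depleted libraries lay below all 4 control libraries, the only one of the 7 genes for which this was so. The share of all genes with this order was not computed. The hairpin 1 libraries were far apart, with a coefficient of variation of 31.9%.

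The coculture change of IL12A was 0.27 on the log2 scale (95% interval -0.12 to 0.67, adjusted p = 0.352). Against the control coculture IL12A was lower with hairpin 1 by a log2 change of -0.74 (SE 0.182, adjusted p = 0.0446), and hairpin 2 gave -0.57 (SE 0.179, adjusted p = 0.122). The depletion change was -0.65 (SE 0.154, adjusted p = 0.0347), a level 0.636 times that of the control coculture. The hairpin 1 call held in 1 of the 8 fits without 1 library, that without library 1 of hairpin 1. With only the compared groups fitted, adjusted p was 0.167 for hairpin 1, 0.0632 for depletion and 0.0266 for hairpin 2, which then passed. The depletion call held in 2 of the 8 fits without 1 library, those without either library of hairpin 1, and adjusted p reached 0.22 without library 2 of the control coculture. IL12A lies opposite the antisense gene IL12A-AS1, which had 2 to 21 counts per library.

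IL23A, which encodes p19, was close to the limit of detection. Its counts were 13 and 17 in control cells alone, 7 and 8 in the control cocultures, 12 and 11 with hairpin 1, and 8 and 9 with hairpin 2. In CPM these were 0.305 and 0.353, 0.180 and 0.215, 0.277 and 0.265, and 0.193 and 0.205. Both control cocultures were below both libraries of cells alone, the opposite order to the other 6 genes, but the fitted log2 change of -0.74 did not pass (SE 0.321, adjusted p = 0.267). The ratio of depth-scaled reads was 0.596, with an exact 95% interval of 0.298 to 1.14 that covers counting error only.

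Per kilobase of exon, the order of levels in control cells alone was IL15RA at 10.2 CPM, IL12A at 2.72, IL7 at 1.73, IL32 at 1.33, IL7R at 0.679, IL15 at 0.530 and IL23A at 0.277. No 2 neighbours in that order overlapped between their libraries. In the control cocultures IL15 stood above IL7R, at 1.05 against 0.815 CPM per kilobase, again without overlap. With hairpin 1, IL12A at 1.97 CPM per kilobase overlapped both IL7 at 2.02 and IL32 at 1.44, and with hairpin 2, IL12A, IL7 and IL32 at 2.21, 2.12 and 2.01 overlapped. In the cocultures with either hairpin, IL7R was again above IL15.

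**Figure D2:**
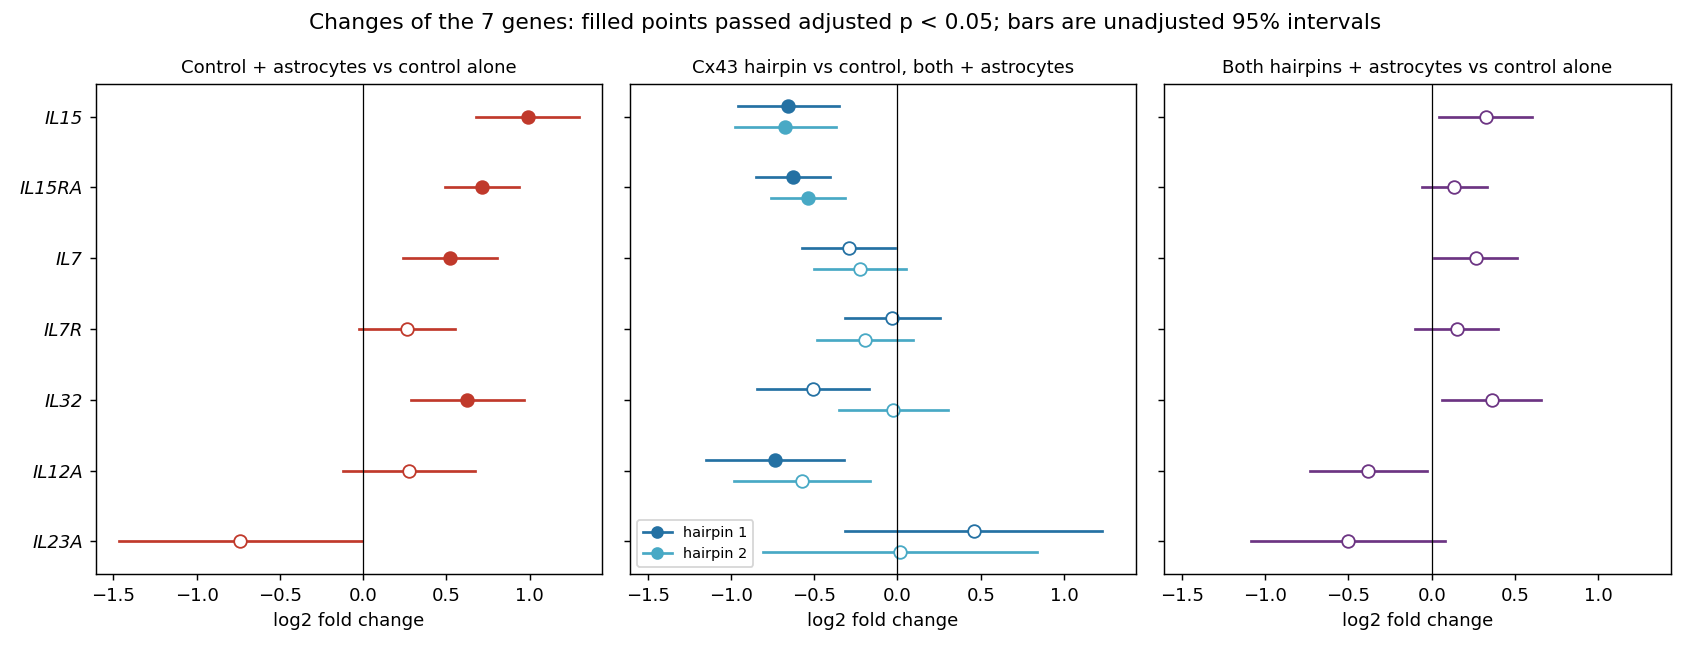
Log2 fold change of each gene with its unadjusted 95% interval, for coculture of control cells (left), each hairpin against the control coculture (middle) and both hairpins with astrocytes against control cells alone (right). Filled points passed an adjusted p of 0.05: IL15, IL15RA, IL7 and IL32 on the left, IL15 and IL15RA with both hairpins and IL12A with hairpin 1 in the middle, and none on the right.

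In coculture 4 of the 7 genes were called higher and none lower, where 8.74% of all 15806 tested genes were called higher. The median log2 change of the 7 was 0.52, beside -0.00256 for all tested genes. When library 2 of the control coculture, or one of the cells-alone libraries, was left out, 2 of the 7 were called.

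With hairpin 1, 3 of the 7 were called lower, where 4.73% of all genes were, and 2 of the 7 with hairpin 2, where 3.20% were. For depletion 3 of the 7 were lower, against 5.85% of all genes, with a median log2 change of -0.27 beside -0.00798 for all genes. No member was called in these 3 comparisons when library 2 of the control coculture was left out, and none with hairpin 2 when control coculture library 1 or either hairpin 2 library was. That library had the higher value of the 2 control cocultures for 6 of the 7 genes, all but IL7R.

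Within hairpin 1, library 2 was below library 1 for 6 of the 7 genes, all but IL7R, and within hairpin 2 this was so for 4 of the 7. No member differed between hairpin 2 and hairpin 1 by edgeR at the adjusted threshold, nor by DESeq2. By edgeR 1 member, IL32, had an unadjusted p under 0.05, as did 1084 of all 15806 tested genes. Of all genes, 0.0316% were called in that comparison. The interval of the difference for IL15 ran from -0.33 to 0.30 on the log2 scale and that for IL15RA from -0.13 to 0.31.

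The depleted cocultures were also set against control cells alone, which differ from them in both astrocytes and hairpin. None of the 7 was called by edgeR or by DESeq2, where 17.1% of all genes were called by edgeR. By edgeR, 4 of the 7 had an unadjusted p under 0.05, as did 5499 of all 15806 tested genes. The log2 change of IL15 was 0.32 (95% interval 0.05 to 0.60, adjusted p = 0.1), and that of IL15RA was 0.14 (-0.06 to 0.33, adjusted p = 0.289). IL32 gave 0.36 (adjusted p = 0.0902) and IL7 0.26 (adjusted p = 0.125). IL12A pointed the other way, at -0.38 (95% interval -0.73 to -0.03, adjusted p = 0.12).

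Several partners of these chains, namely IL2RB, IL2RG, CRLF2 and IL12B, were near or below the floor of 3 reads. IL2RB, which transmits the IL-15 signal, had at most 2 reads in any library and 9 in all. IL2RG, the common gamma chain, had 1 to 8 reads per library. It was at 0.164 and 0.166 CPM in cells alone, 0.206 and 0.0805 in the control cocultures, 0.0694 and 0.121 with hairpin 1, and 0.0241 and 0.0455 with hairpin 2. Both genes were left untested by the filter, and no order among the groups can be read at these counts. IL15RA was thus read at 35.2 CPM or more in libraries where the beta chain stayed below 0.0805 CPM.

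CRLF2, the partner of IL7R for TSLP, had no read in any of the 8 libraries, which allows up to 0.0805 CPM in the shallowest. TSLP itself had 0.281 to 0.568 CPM, with a coculture change of 0.68 (SE 0.271, adjusted p = 0.218). Every coculture library lay above both libraries of cells alone. In the depleted cocultures against cells alone, TSLP was higher by 0.81 and passed narrowly by edgeR (SE 0.229, adjusted p = 0.0498). IL12B, whose product p40 completes IL-12 and IL-23, had 3 reads in all 8 libraries together, at most 1 in a library. IL27 had none, and IL23R had 1 read. IL12A and IL23A were therefore detected in libraries where IL12B, which encodes their shared partner p40, was not detectable beyond single reads.

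EBI3, another beta subunit, which joins p35 to form IL-35, had 0.610 and 0.478 CPM in cells alone and 1.00 and 0.858 in the control cocultures. With hairpin 1 it had 0.879 and 0.627 CPM and with hairpin 2 0.723 and 0.591. The control cocultures lay above cells alone, but the log2 change of 0.78 did not pass (SE 0.261, adjusted p = 0.0919). Among receptor chains of the family, IL6ST, the shared gp130 chain, had 305 to 486 CPM and IL27RA 35.3 to 42.4 CPM. IL6ST was higher on depletion, by 0.32 on the log2 scale (SE 0.0733, adjusted p = 0.0317). That call held only without either library of hairpin 1, and adjusted p reached 0.199 in the 6 fits without another library.

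**Figure D3:**
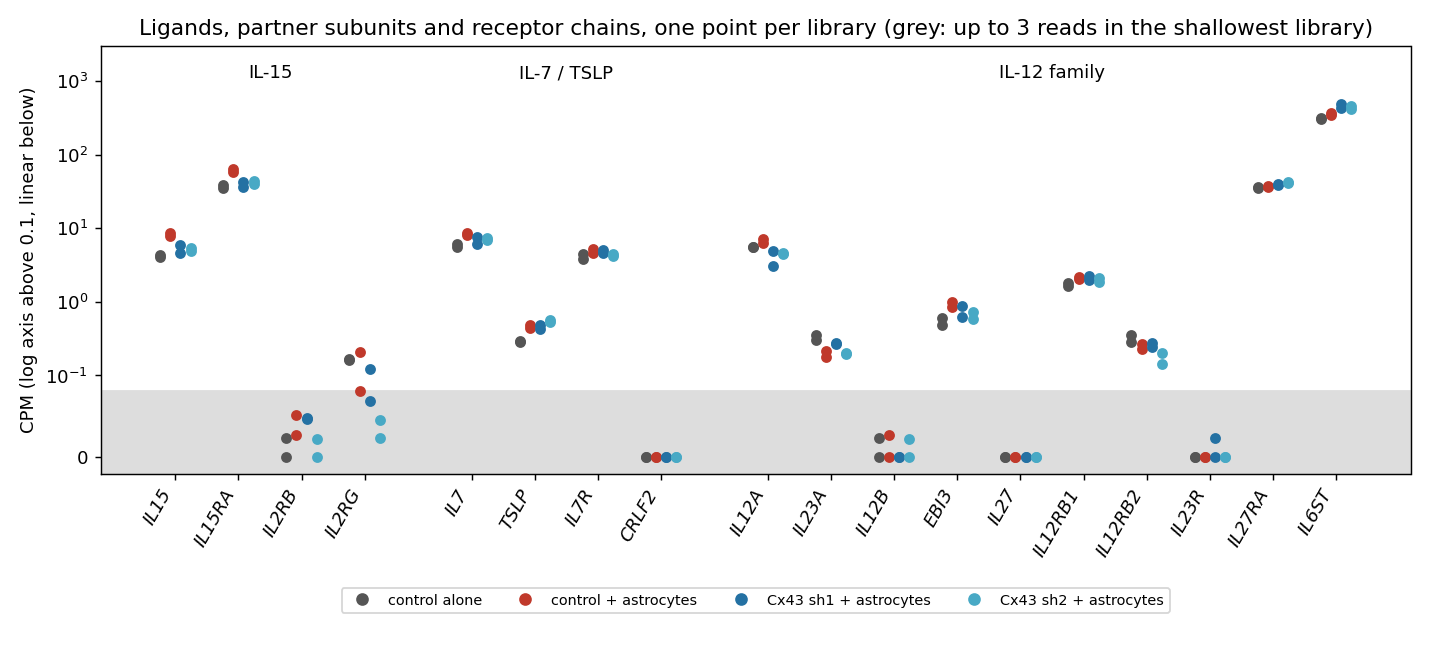
CPM in each of the 8 libraries for the IL-15, IL-7 and IL-12 family ligands, partner subunits and receptor chains, on an axis that is logarithmic above 0.1 CPM and linear below. The grey band marks up to 3 reads in the shallowest library, and IL2RB, CRLF2, IL12B, IL27 and IL23R lie within it in all libraries.

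Of 15 other cytokines and receptors of the common gamma chain and related receptors, 5 were tested and 6 had no read in any library. Of the tested genes, IL4R and IL21R pair with the common gamma chain, whereas TSLP, IL13RA1 and IL13RA2 work through related receptors without it. Of the 5, 2 were higher in coculture, where 8.74% of all tested genes were, with a median log2 change of 0.36. None changed on depletion, where 9.22% of all tested genes were called in either direction, with a median of 0.09 for the 5. IL13RA1, a receptor chain for IL-13 and IL-4, rose from 102 to 143 CPM (log2 change 0.49, SE 0.0653, adjusted p = 0.00188). IL4R, its partner, rose by 0.36 (SE 0.0894, adjusted p = 0.0338), but in 5 of the 8 fits without 1 library it lost its call, with an adjusted p of up to 0.217. The libraries left out in those fits were both of cells alone, both of hairpin 2, and library 1 of the control coculture. Of 8 IL-12 family partners and receptors, 5 were tested, none was called in coculture and IL6ST alone on depletion. Their medians were 0.22 and -0.06.

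All 12 kinases, STATs and adaptors or phosphatases of these receptors were tested. JAK2, a kinase of many cytokine receptors, rose in coculture by 0.54 on the log2 scale (SE 0.0874, adjusted p = 0.00512). It was the only call of the list, a share close to the 8.74% of all tested genes called higher. None was called on depletion, where 9.22% of all tested genes were called in either direction. JAK3, which pairs with the common gamma chain, had 0.208 to 0.510 CPM and a coculture change of 0.87 (SE 0.355, adjusted p = 0.155). STAT5A, a main effector of IL-7 and IL-15, had a coculture change of 0.25 (adjusted p = 0.12).

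Of 12 genes linked to STAT5, 11 were tested, 5 rose in coculture and 4 fell on depletion, with medians of 0.30 and -0.01. Of all tested genes, 8.74% rose and 5.85% fell in those comparisons, with medians of -0.00256 and -0.00798. The 4 listed genes that did both also answer to other pathways, and a link to STAT5 was not tested. PIM1, a survival kinase, rose by 1.16 on the log2 scale (adjusted p = 6.73e-06) and was lower on depletion (-0.70, adjusted p = 7.13e-05). SOCS1, an inhibitor of JAK signalling that interferon also induces, rose by 1.10 (adjusted p = 3.08e-05) and changed by -0.57 on depletion (adjusted p = 0.00106). MCL1, an anti-apoptotic BCL2 relative, rose by 0.81, and MYC by 0.47. Their depletion changes were -0.35 for MCL1 and -0.37 for MYC. The MCL1 depletion call was lost without either library of the control coculture, with an adjusted p of up to 0.0605.

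The fifth gene to rise was SOCS3 (0.30, adjusted p = 0.0478), which kept its call only without either library of hairpin 1. CISH, also a STAT5 target, had 0.610 to 1.11 CPM and did not pass in coculture (log2 change 0.37, adjusted p = 0.356). By edgeR it was higher in the depleted cocultures than in control cells alone (log2 change 0.68, adjusted p = 0.0285). SOCS2, another STAT5 target, had a coculture log2 change of -0.33 (adjusted p = 0.0584).

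Of 10 interferon and NF-kB transcription factors, all tested, the 5 interferon-related factors rose in coculture and fell on depletion, and the 5 NF-kB subunits were called in neither. The medians of the 10 were 0.59 and -0.45. Among all tested genes 8.74% rose in coculture and 5.85% fell on depletion. IRF7 rose by 2.98 on the log2 scale (adjusted p = 1.17e-07) and changed by -2.43 on depletion, and IRF1, a known activator of IL15, rose by 0.93 (adjusted p = 5.4e-05) and changed by -0.61. IRF2 rose by 0.95 and changed by -0.92. STAT2 and IRF9 were also called in both comparisons, and IRF9 lost its depletion call when control coculture library 2 was left out (adjusted p = 0.0724). NFKB1, NFKB2, REL, RELA and RELB, named after their values were seen, had coculture changes of -0.04, 0.26, 0.21, 0.01 and 0.25. IL15 and IL15RA moved in the same directions as the interferon-related factors. These factors share the control libraries and the fit with IL15, and a link between them was not tested.

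**Figure D4:**
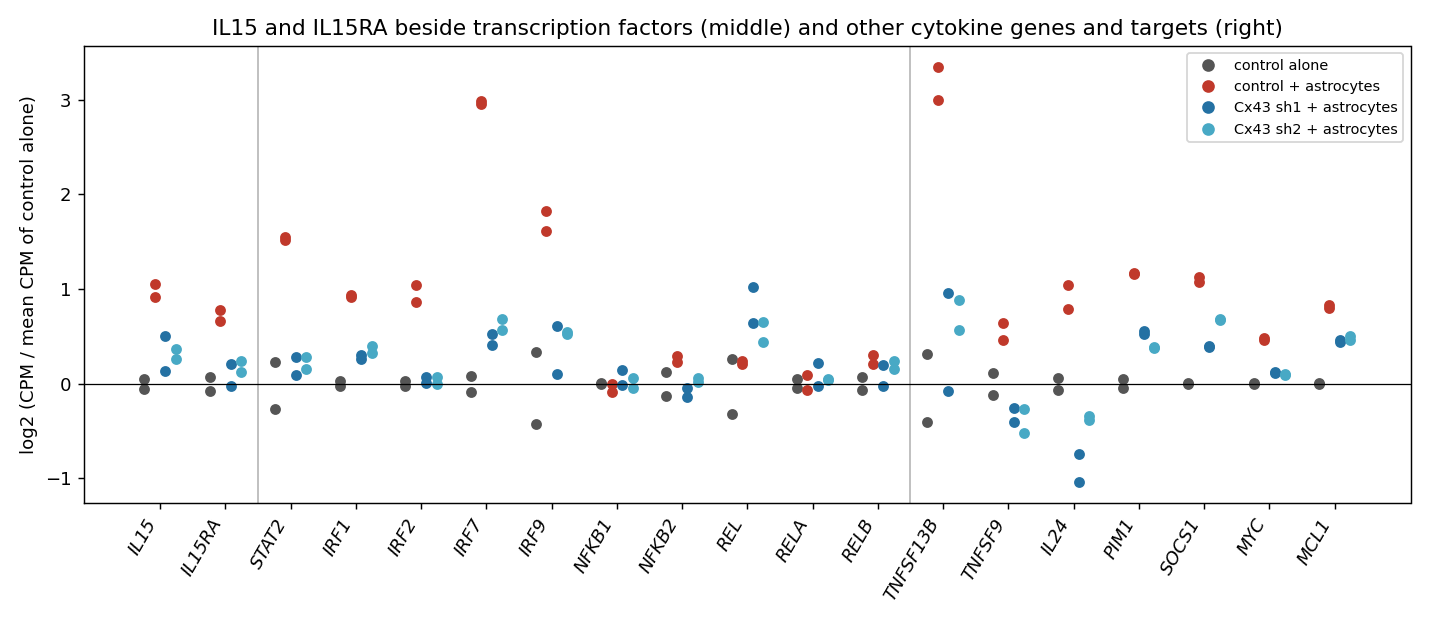
Log2 ratio of CPM in each library to the mean of control cells alone, for IL15 and IL15RA (left), 10 transcription factors (middle) and 7 other genes (right) that were called in both comparisons. The interferon-related factors STAT2 to IRF9 stand above 0.8 in both control cocultures, whereas the NF-kB subunits NFKB1 to RELB reach at most 0.30 there.

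Among 10 ligands of the TNF family that act on lymphocytes, 5 were tested, 2 rose in coculture and the same 2 were lower on depletion, with medians of 0.55 and -0.33. The shares of all tested genes called higher in coculture and lower on depletion were 8.74% and 5.85%. TNFSF13B encodes BAFF, a B cell survival factor, and rose from 0.358 to 3.25 CPM (log2 change 3.19, SE 0.314, adjusted p = 0.000314), with a depletion change of -2.54 (adjusted p = 0.000356). TNFSF9, the ligand of the T cell receptor 4-1BB, rose by 0.55 (adjusted p = 0.0366) and changed by -0.91 on depletion (adjusted p = 0.00309). Its coculture call held only without either library of hairpin 1, with an adjusted p of up to 0.21 in the 6 other fits.

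Of 16 other interleukins, 2 were tested and 5 had no read. IL24, a cytokine of the IL-10 family, rose from 34.3 to 65.1 CPM in coculture (log2 change 0.92, adjusted p = 0.00116). It was at 22.6 CPM in the depleted cocultures (log2 change -1.55, adjusted p = 1.7e-05), below cells alone. IL17D had changes of -0.25 and 0.01 and was called in neither comparison.

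For each of the 7 genes, the genes of most similar pattern were listed, up to 5 for each, by Pearson correlation of log2(CPM + 0.5) over the 8 libraries, among genes with a mean of at least 50 counts (11768, or 11769 for IL23A, which is itself below that mean). These are descriptions, since the libraries fall into groups and share the contrast between the control cocultures and the rest. For IL15 they were TMEM159 (r = 0.988), CD74, GAP43 and PMPCB (0.977). For IL15RA they were GTPBP2 (0.994), DAXX, ISG20, GABARAPL1 and IFITM3 (0.983). ISG20 and IFITM3 are interferon-stimulated genes, and CD74 encodes the MHC class II invariant chain.

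For IL7 they were NREP (0.986), HLA-DPA1, PMP22 and RAB5C (0.966). For IL7R they were TTI1 (0.972), IDS, BMP6, FTO and GPR3 (0.936), none called in coculture or on depletion. For IL32 they were SAA2 (0.975), an acute phase protein gene, POLD4, GATSL3, TMEM171 and CTSS (0.964). For IL12A they were BPNT1 (0.986), RGCC, CAPG, C1GALT1C1 and SCPEP1 (0.980). The list for IL23A, led by MRPS30 (0.981), CEP55, CAV1, GRSF1 and ARHGAP18 (0.955), rests on 7 to 17 reads per library.

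Markers of other cells that could be in the lysate were read beside these results. Of 10 astrocyte markers 6 were tested, and their 10 summed levels were 49.1 to 53.5 CPM in cells alone, 68.4 to 69.6 in the control cocultures, 61.6 to 69.7 with hairpin 1 and 56.4 with hairpin 2 in both libraries. Most of each sum was SOX9, with group means of 37.5, 47.7, 43.2 and 38.3 CPM in the same order. SOX9, and GFAP at a mean of 8.66 CPM, were thus read in cells without astrocytes. GFAP, SLC1A3 and SOX9 rose in coculture, as IL15 and IL7 did, and SLC1A3 fell on depletion. GFAP went the other way with hairpin 1, where it was higher by 0.33 on the log2 scale (adjusted p = 0.0397, kept in 1 of 8 fits without 1 library), and its depletion change was 0.09 (adjusted p = 0.464). SOX9 kept its call in 2 and SLC1A3 on depletion in 4 of 8 fits without 1 library. ALDH1L1, SLC1A2 and ALDOC were tested and not called in coculture, with log2 changes of -0.20, 0.34 and 0.68. Of the untested markers, GJB6 had 2 reads in all, AQP4 35, AGT 31 and S100B 10. The part of astrocyte RNA in the cytokine results was not tested.

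Microglia, macrophage and dendritic cell markers, 2 of 10 tested, summed to 1.29 to 1.54 CPM in cells alone, 3.16 to 3.43 in the control cocultures, 2.68 to 2.90 with hairpin 1 and 2.72 to 2.80 with hairpin 2. CSF1R and CD14 rose in coculture and kept their calls in 5 and 7 of the 8 fits without 1 library. AIF1, C1QA, C1QB and TYROBP had no read in any library. T and NK cell markers, 1 of 10 tested, summed to 6.01 to 8.66 CPM over all libraries, nearly all of it CD8A. CD2, CD3G and NKG7 had no read, CD3D had 1, CD3E had 2, and PTPRC had 55 in all 8 libraries together. CD8A itself had group means of 6.15 to 7.74 CPM and passed the threshold in none of the comparisons. The part of lymphocyte or myeloid RNA in the cytokine results was not tested.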

How the data were processed

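Per the labels' protocols, the 8 samples were polysome-associated RNA sequenced from libraries of the TruSeq RNA v2 kit, which does not mark strand. The authors deposited 1 table of whole-number counts per gene. Its name calls them normalized, but the values were whole, differed in total and included 5 HTSeq counter rows, so they were treated as unnormalized counts. TopHat2, HTSeq, DESeq2 and hg19 are named, per the submitters' processing notes. Counting mode and strand are not given in the sources used here.

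Genes with a mean of at least 10 counts (15806) were fitted in edgeR 4.0.16 (R 4.3.3) with TMM factors (0.975 to 1.03), glmQLFit and glmQLFTest, all 4 groups in 1 fit. P-values were adjusted by Benjamini-Hochberg over all tested genes, with a threshold of 0.05. The prior had 4.73 degrees of freedom, and the common biological coefficient of variation was 7.66%. Standard errors and 95% intervals come from the quasi-likelihood statistic and are unadjusted. "Rose" and "fell" are used of genes past the threshold.

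Levels per kilobase used the union of GENCODE v29 exons (GRCh38), not the annotation of the files. Sequences are from RefSeq GRCh38.p14. The script was tested on simulated data. Alternatives were DESeq2 1.42.0, its size factors, library totals, other count filters, a replicate block, only the groups compared, and leaving out each library. Named genes were the 7 members and GJA1, up to 4 members of each list by smallest p with those at the floor, and the 5 genes most like each member. IL21R, JAK3, CISH, SOCS2, SOCS3, IRF9 and the NF-kB subunits were named in addition to those that these rules select. Some genes that these rules select are not reported here, and list counts leave them out. The members and lists were chosen with earlier results of these data known. Exact intervals and floors cover counting error only.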

Additional observations from a re-analysis of the deposited data

How the results depend on the processing

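Over 615 alternative values of the 7 genes, 550 stayed on the same side of the threshold, 52 lost a call and 13 gained one, of which 330 values came from leaving out a library (282, 41 and 7). The sign changed in 13 values of 7 results, none of them called, and in 0 called results. All-gene medians moved by at most 0.0517 on the log2 scale under another scaling. IL23A was not tested with a mean of at least 50 counts or in some of the fits without a library. With no low-count filter, 2805 genes were called in coculture (1844 with the filter), 2269 with hairpin 1 (1236), 1191 with hairpin 2 (658), 304 between hairpins (5) and 4117 for depleted cocultures against cells alone (2709), and the last 2 comparisons gained 1 of the 7 genes (IL32) and 2 (IL32, adjusted p 0.0263, and IL12A, 0.0106). Between hairpins 3 genes were called with library totals or a mean of at least 50 counts, 2 with only the groups compared and 22 by DESeq2. For hairpin 1 the fit of only the groups compared called 236 genes and 0 members. Same-numbered libraries of different groups deviated from their group means with correlations of -0.702 to 0.424, so the numbers are not taken to pair them. With the replicate block, 1160 genes were called in coculture, 446 with hairpin 1, 319 with hairpin 2, 700 on depletion, 0 between hairpins and 1502 for depleted cocultures against cells alone. The block left 2 members in coculture (IL15 and IL15RA), 1 with hairpin 1 (IL15RA) and 0 with hairpin 2. Its adjusted p was 0.0537 and 0.0621 for IL15 with hairpins 1 and 2, 0.06 for IL15RA with hairpin 2, 0.0666 and 0.0644 for IL7 and IL32 in coculture, and 0.0844 and 0.0678 for IL12A with hairpin 1 and on depletion. With no filter IL32 also passed with hairpin 1 (0.00607) and IL12A with hairpin 2 (0.00214). Leaving out 1 library gave 738 to 2582 genes and 2 to 4 members in coculture, 281 to 2405 and 0 to 4 with hairpin 1, 150 to 1101 and 0 to 3 with hairpin 2, and 343 to 2314 and 0 to 4 on depletion. It gave 0 to 3 genes and 0 members between hairpins, and 531 to 4717 genes and 0 to 2 members for depleted cocultures against cells alone. A group left with 1 library is assumed to vary like the others. The cause of these moves was not tested.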
